A study of Mus musculus with 292 samples.

Results

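Mice of an F2 brain series were set apart by their level of Scg5, and every other gene was compared between the mice with a low and those with a high level. The low group was all mice with a log10 ratio under -0.124 at the Scg5 probe and the high group all mice above 0.104. These limits took 66 low and 62 high mice, 128 of the 292 mice in all, and the 164 mice between them served as a check for dose. The array had 1 probe annotated to Scg5. All mice, females and males, descended from inbred C57BL/6J and C3H/HeJ parents by way of intercrossed F1 animals, with the cross made in both directions. No mouse carried a designed allele or received a drug. All ate chow of 4% fat to week 8 and then a Western diet, of 42% fat and 0.15% cholesterol, over 12 weeks. They were killed at 20 weeks of age, having fasted for 12 h. The sources used here give no sex or cross direction for single mice, and genotypes were not analysed here, so low and high are groups by measured level and not by allele. Each mouse is a separate animal with 1 array, on which its brain RNA (Cy3) was set against a pool of all samples (Cy5).

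Scg5 encodes 7B2, a small neuroendocrine secretory protein that binds the prohormone convertase PC2 in the secretory pathway and helps it to reach its active form, and PC2 then cuts peptide precursors inside dense-core vesicles. In an F2 intercross each mouse inherits a mosaic of both parental strains, so that genes lying close together on a chromosome are mostly inherited together, and this association fades with distance. A variant that acts on its own chromosome copy changes the level of its neighbour gene, and different genes of a stretch can each carry such a variant.

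The stretches before the starts of Scg5, Aqr and Pla2g4e are shown because Scg5 set the groups and the other 2 genes had the largest differences between them. They are RefSeq sequence of build GRCm38.p6, which is C57BL/6J sequence, 250 bases before each start, on the minus strand, at chr2:113829092-113829341 for Scg5, chr2:114175340-114175589 for Aqr and chr2:120245336-120245585 for Pla2g4e. Capitals mark matches to TGACG (the core of the cyclic AMP response element), GGGCGG (the SP1 box), TTCCGG (an ETS site), TATAAA (the TATA box) or CCAAT (the CCAAT box), searched on both strands.
Scg5: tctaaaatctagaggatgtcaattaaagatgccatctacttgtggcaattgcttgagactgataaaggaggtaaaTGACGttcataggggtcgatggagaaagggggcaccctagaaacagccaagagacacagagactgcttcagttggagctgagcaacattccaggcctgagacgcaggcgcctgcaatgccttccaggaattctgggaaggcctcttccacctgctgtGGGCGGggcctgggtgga
Aqr: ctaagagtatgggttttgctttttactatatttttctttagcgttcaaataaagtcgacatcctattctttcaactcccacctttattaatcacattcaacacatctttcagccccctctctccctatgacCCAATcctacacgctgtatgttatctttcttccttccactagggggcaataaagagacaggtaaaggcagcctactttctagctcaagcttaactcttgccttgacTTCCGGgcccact
Pla2g4e: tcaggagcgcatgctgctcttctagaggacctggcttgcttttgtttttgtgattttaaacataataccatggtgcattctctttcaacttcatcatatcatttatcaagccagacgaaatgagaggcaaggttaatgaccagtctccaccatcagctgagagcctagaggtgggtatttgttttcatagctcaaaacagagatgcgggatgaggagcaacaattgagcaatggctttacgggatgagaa
The Scg5 stretch held 1 TGACG, found in 17.8% of the 32851 such stretches in the table, and 1 GGGCGG, found in 32.7%. The Aqr stretch held 1 TTCCGG, found in 12% of the stretches, and 1 CCAAT, found in 33.8%. TATAAA was in 12.4% of the stretches, and that of Pla2g4e held none of the 5 motifs. The 3 stretches are the reference strain's, and strain differences within them were not analysed here.

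Scg5 fell into 3 levels, with a wide gap at the lower limit and a narrow one at the upper limit. In the low mice its log10 ratio ran from -0.352 to -0.172 with a median of -0.27. The middle mice ran from -0.0533 to 0.0923 with a median of 0.0244, and the high mice from 0.114 to 0.227 with a median of 0.185. The highest low mouse, at -0.172, was thus followed by a middle mouse at -0.0533, and the highest middle mouse, at 0.0923, by a high mouse at 0.114 and the next at 0.136. As mean ratios to the pool this is 0.537 in low, 1.06 in middle and 1.53 in high mice, and the low mean was 2.84-fold below the high one. These values chose the groups and carry no test. The low mice made up 22.6%, the middle mice 56.2% and the high mice 21.2% of all mice. Mouse numbers up to 212 and from 213 form 2 blocks. A spelling difference in the labels splits the first block, so that low mice made up 21.6% of its 74 mice of one spelling, 32.5% of its 77 mice of the other and 17.7% of the 141 mice from 213.

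The deposited values are ratios, so the brain's own markers could be compared between mice but not shown to be present. The direction of the ratio is not stated and was taken as mouse over pool, which is likely because the Y-linked gene Kdm5d, in mice of both sexes, ran from -1.59 to at most 0.456. With the sign turned, low and high trade places, while each gene keeps moving with or against Scg5. Probe sequences were not used, so a different RNA level and a different hybridisation at a base that differs between the strains cannot be told apart for any gene on chromosome 2, Scg5 included. Arrays differed in their spread, with SDs across probes between 0.0437 and 0.2 (median 0.068). Groups were compared with limma on the log10 ratios with the block of mouse numbers as a covariate, with Benjamini-Hochberg adjustment over 23548 probes. Called means an adjusted p under 0.05, and a difference is low minus high, in log10 units, to be read beside a median probe SD of 0.0495 over all mice.

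Low and high mice differed at 333 of 23548 probes (1.41% called), 168 lower (0.713%) and 165 higher (0.701%) in low mice. Of 10834 genes with a name, 171 were called (1.58%), 95 lower (0.877%) and 76 higher (0.701%). Among genes with a name and a chromosome, the called genes were concentrated on chromosome 2, where Scg5 lies. There 107 of 884 genes were called (12.1%), 51 lower (5.77%) and 56 higher (6.33%) in low mice. Of the 9950 genes elsewhere, 64 were called (0.643%), 44 lower (0.442%) and 20 higher (0.201%). The other chromosomes held between 0.197% and 1.31% called genes each, except 14, X and Y, where limma called 0 of 365, 0 of 392 and 0 of 8 genes and 18, 16 and 0 had an unadjusted p under 0.05. The median fold difference was 1.16 over the called genes of chromosome 2 and 1.11 over those elsewhere. Over all 884 genes tested on chromosome 2 it was 1.02, beside 1.01 over all named genes. At least 1.2-fold differences were found for 40 of the called chromosome 2 genes and for 13 of the others. The mice were grouped by a chromosome 2 gene, so the share called there is a description of that grouping.

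**Figure D1:**
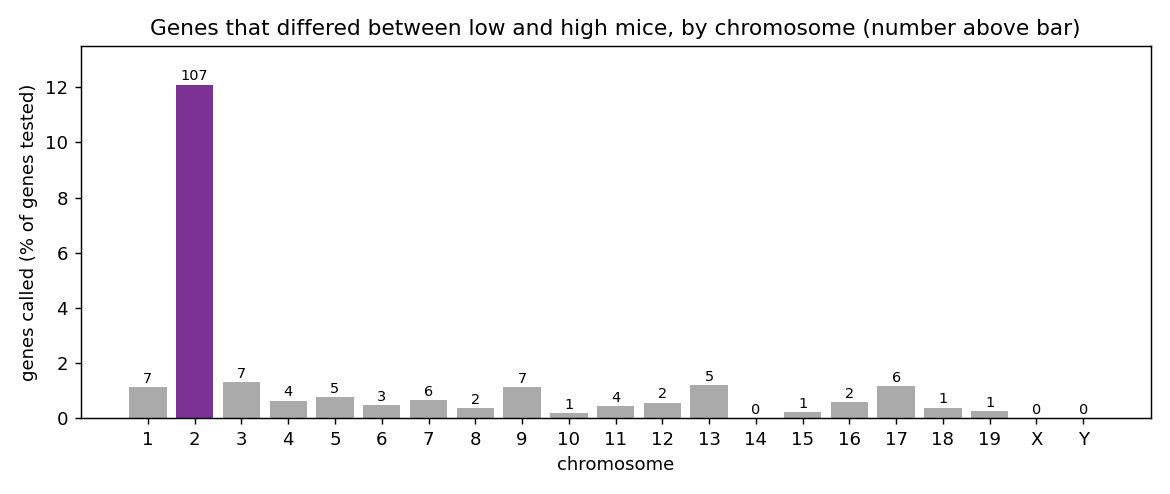
Share of named genes called between low and high mice (limma adjusted p under 0.05) for each chromosome, in percent of the genes tested there, with the number called above each bar. Chromosome 2 stands at 12.1% with 107 genes, and no other chromosome exceeds 1.31%.

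The differences of largest size were those of Aqr, Pla2g4e and Slc24a5. Aqr, an RNA helicase that binds introns inside the spliceosome, lies 10 genes from Scg5 in the order of the gene table and moved against it. In low mice its log10 ratio ran from 0.0236 to 0.32 with a median of 0.211, in middle mice from -0.425 to 0.128 with a median of 0.00304, and in high mice from -0.638 to 0.00644 with a median of -0.466. No low mouse overlapped a high one. The high mouse at 0.00644 stood close to the middle median, and its Scg5 level of 0.114 was the nearest above the upper limit. The middle mouse nearest below that limit, with Scg5 at 0.0923, had an Aqr ratio of -0.373, nearer to the high median. The difference was 0.657 ± 0.0144 (SE), or 4.54-fold, with a limma adjusted p of 7.79e-131.

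Pla2g4e encodes a cytosolic phospholipase A2 of group IV that acts as an N-acyltransferase and makes N-acylated phosphatidylethanolamines. It lies 134 genes from Scg5 on the same side as Aqr, and moved with Scg5. Its log10 ratio ran in low mice from -0.724 to 0.0518 with a median of -0.443, in middle mice from -0.599 to 0.329 with a median of 0.0193, and in high mice from 0.0553 to 0.38 with a median of 0.246. Here also the groups did not overlap, though the highest low mouse and the lowest high mouse nearly met. The difference was -0.665 ± 0.0191, or 4.62-fold, with a limma adjusted p of 5.3e-102. Aqr and Pla2g4e were the only 2 named genes (0.0185% of 10834) with no overlap of low and high mice, and 4 of 23548 probes (0.017%) had none.

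Slc24a5 encodes a potassium-dependent sodium and calcium exchanger known for its part in pigment granules, and lies 231 genes from Scg5. It ran in low mice from -0.0258 to 0.43 with a median of 0.202, in middle mice from -0.732 to 0.4 with a median of 0.00853, and in high mice from -0.716 to 0.0481 with a median of -0.467. On the low side of the midpoint of the group means lay 3 high mice, at 0.0481, 0.00363 and -0.117. Only those at 0.0481 and 0.00363 reached the range of the low mice. The difference was 0.655 ± 0.0244, or 4.51-fold, with a limma adjusted p of 2.74e-77. The 3 genes moved in different directions, Pla2g4e with Scg5 and Aqr and Slc24a5 against it.

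**Figure D2:**
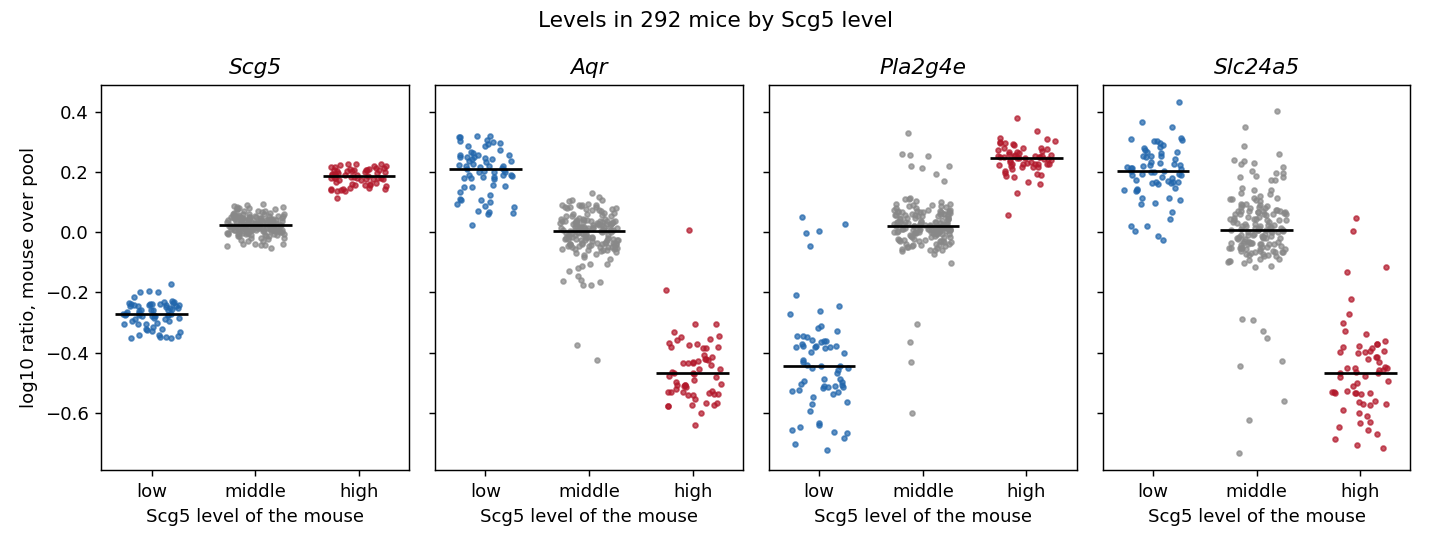
Log10 ratio of each of the 292 mice over the pool for Scg5, Aqr, Pla2g4e and Slc24a5, by the mouse's Scg5 level (66 low, 164 middle and 62 high mice); each point is a mouse and the black line the median. Scg5 and Pla2g4e go up from low to high mice, Aqr and Slc24a5 go down, and a few mice in each of Aqr, Pla2g4e and Slc24a5 lie with another level.

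The next 12 chromosome 2 genes by size of difference held enzymes, protease inhibitors and regulators. Lin7c, a PDZ scaffold of cell junctions and synapses, was 1.96-fold higher in low mice, with medians of 0.164 in low, 0.0393 in middle and -0.139 in high mice (difference 0.293 ± 0.013). Sppl2a, an intramembrane protease, was 1.9-fold higher. Ltk, a receptor tyrosine kinase related to ALK, was 1.79-fold higher, Spata5l1 1.74-fold, Ccdc34 1.7-fold and Fbxo3, the substrate subunit of a ubiquitin ligase, 1.56-fold. Naa20, the catalytic subunit of an N-terminal acetyltransferase, was 1.52-fold higher in low mice, Mrps26, of the mitochondrial ribosome, 1.51-fold, and Bbox1, which makes the last step of carnitine synthesis, 1.44-fold. The genes that were lower in low mice were Slpi, a secreted inhibitor of leukocyte proteases (1.72-fold), Cst3, the cysteine protease inhibitor cystatin C (1.51-fold), and Wt1, a zinc finger transcription factor (1.49-fold). Cst3 had a median of -0.125 in low, 0.0135 in middle and 0.0944 in high mice, and the medians of Slpi were -0.186, -0.0223 and 0.0681. All 12 had limma adjusted p values of 1.7e-15 or less. Lin7c had a 2nd probe, with a difference of -0.0165 (limma adjusted p = 0.873). Of the 8 other probes of 6 called chromosome 2 genes, only 2 were called, both in the direction of the first probe, and 0 in the opposite one. The rest were not called. Like the 2nd probe of Lin7c, that of Eif2s2 had the opposite sign, at 0.0288 beside -0.0773 for its first probe. The first probe was the one of largest SD.

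The immediate neighbours did not all move. Of the 5 measured genes on each side of Scg5, 3 were called, Aqr, Fmn1, a formin that nucleates actin (1.17-fold lower in low mice), and Meis2, a homeobox transcription factor (1.21-fold higher). Arhgap11a, the adjacent gene in the order, had medians of -0.00645 in low, -0.00405 in middle and 0.00123 in high mice, and Grem1, an antagonist of bone morphogenetic proteins on the other side, had medians of -0.0213, -0.0128 and -0.0139. Gjd2, a neuronal gap junction protein, Chrm5, a muscarinic acetylcholine receptor, Nutm1, Olfr1302 and BC052040 were likewise not called. A level with no call is not shown to be equal.

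Along chromosome 2 the share of called genes was highest around Scg5 and did not fall steadily with distance. Of the 22 genes within 150 gene places before it, 11 were called (50%), and of the 46 within 150 places after it, 17 (37%). Between 150 and 300 places after Scg5 the share was 41.5% of 41 genes, and between 300 and 450 places it was 30.2% of 43. On the other side it was 19.4% of 31 genes between 150 and 300 places, and 0 of 94 genes by limma from 300 to 700 places, of which 66 are olfactory receptor genes and 3 had an unadjusted p under 0.05. Called genes were also found farther off, 43 of them over 450 places away. After Scg5 the share was 11.3% of 53 genes from 450 to 700 places and 16% of 81 genes from 700 to 1000 places. Beyond 1000 places after Scg5 it was 5.56% of 126 genes. On the far side it was 8.86% of 79 genes from 700 to 1000 places, 6.93% of 101 genes from 1000 to 1500, and 1.8% of 167 genes beyond. Direction was mixed in every window with calls. Within 150 places before Scg5, 4 called genes were lower and 7 higher in low mice, and within 150 places after it 7 were lower and 10 higher.

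**Figure D3:**
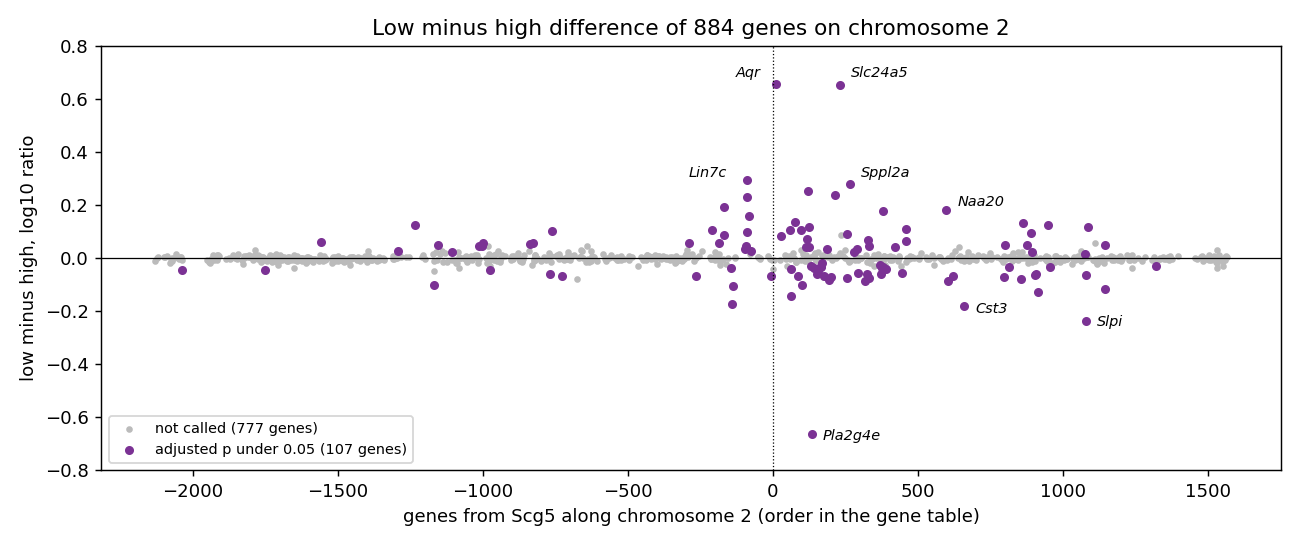
Low minus high difference in log10 ratio of 884 chromosome 2 genes against their place in gene order from Scg5 (dotted line), called genes in purple. Pla2g4e at -0.665 and Aqr and Slc24a5 at 0.657 and 0.655 stand out, and called genes lie on both sides of 0.

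Mice that went against their group were counted for the 15 chromosome 2 genes of largest difference. A low or high mouse was counted as being on the other side when its level lay beyond the midpoint of the group means. This held for 0.781% of the 128 mice at Aqr, 1.56% at Ltk, 3.91% at Pla2g4e, 2.34% at Spata5l1 and at Slc24a5, and 4.69% at Sppl2a and at Mrps26, which lies 381 places after Scg5. At Naa20, 598 places after, the share was 16.4%, at Cst3, 660 places after, 15.6%, and at Slpi, 1078 places after, 19.5%. On the other side of Scg5 it was 7.03% at Bbox1, 2.34% at Ccdc34, 4.69% at Lin7c, 7.81% at Wt1 and 2.34% at Fbxo3. A gene with a small difference beside its spread also puts mice on the other side, so this share mixes place and spread. Called genes near Scg5 with smaller differences had shares of 11.7% (Fmn1), 26.6% (Meis2), 24.2% (Mga), 29.7% (Pla2g4b) and 31.2% (Ccndbp1).

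The same mice recurred for some genes and not for others. All 3 mice on the other side at Slc24a5 were also there at Sppl2a and at Mrps26. Of the 21 such mice at Naa20 and the 20 at Cst3, 11 were shared. The 6 mice at Mrps26 shared 4 with Naa20 and 1 with Cst3. Of the 6 mice at Sppl2a and the 6 at Mrps26, 3 were shared. Lin7c and Ccdc34, near each other in the gene order, had 6 and 3 such mice and shared 0. The 5 mice at Pla2g4e were all low mice, and none was among the 3 at Slc24a5, which were all high mice. This does not show that the 5 were unlike at Slc24a5, where they ran from -0.0258 to 0.0442. The middle median there was 0.00853 and the low median 0.202. From the high to the low mean, the middle mean lay at 33.3% for Pla2g4e and 70.9% for Slc24a5. A mouse at the middle level thus counts only if low at Pla2g4e and only if high at Slc24a5. Within the levels, the correlation of Pla2g4e with Scg5 was 0.449 over the low mice, 0.107 over the middle and 0.23 over the high mice, and that of Aqr was -0.0354, 0.137 and -0.278. These points share the array of each mouse and describe the relation left inside a level.

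**Figure D4:**
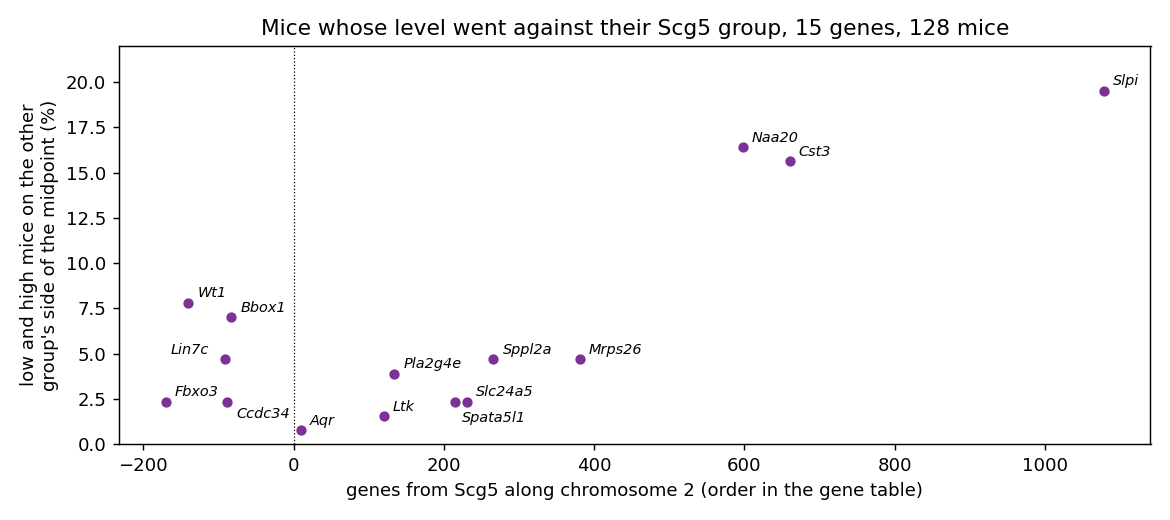
Share of the 128 low and high mice, in percent, whose level lay on the other group's side of the midpoint, for the 15 chromosome 2 genes of largest difference against their place in gene order from Scg5 (dotted line). Aqr has the lowest share at 0.781%, genes from Fbxo3 to Mrps26 reach at most 7.81%, and Naa20, Cst3 and Slpi lie between 15.6% and 19.5%.

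The middle mice lay between low and high mice. This held for the means of all 107 called chromosome 2 genes, of 61 of the 64 called genes elsewhere, and of 37.7% of all named genes. The middle mean lay at a median of 50.3% of the way from the high to the low mean for the called chromosome 2 genes and of 49.4% for the other called genes. A departure from the midpoint in log10 ratios was called at 9 of 23548 probes (0.0382% called), and 3 of them were named genes, Aqr, Pla2g4e and Slc24a5, all with middle mice above the midpoint. For Aqr the departure was 0.12 ± 0.00964 (limma adjusted p = 1.22e-24), for Pla2g4e 0.106 ± 0.0128 (1.82e-11) and for Slc24a5 0.136 ± 0.0163 (1.82e-11). On linear ratios limma called 0 probes, with 379 at an unadjusted p under 0.05, and the departures were 0.00491 ± 0.0208 for Aqr, -0.0236 ± 0.0241 for Pla2g4e and 0.0637 ± 0.0344 for Slc24a5. On log10 ratios that number was 406. As mean ratios to the pool, Aqr stood at 1.61 in low, 0.999 in middle and 0.363 in high mice, and Pla2g4e at 0.408, 1.07 and 1.76.

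Among the measured genes of the lists for the secretory system in which 7B2 acts, none was called. The lists named 19 convertase and granin genes, 34 neuropeptide precursors and 21 dense-core vesicle genes. Part of the genes in each list were not analysed here. Of 16 measured genes of the proprotein convertases, their helpers and the granins, limma called 0 (1.58% over all named genes), 0 had an unadjusted p under 0.05, and their median difference was -0.00525 beside -0.000397 over all named genes. The smallest p was that of Pcsk5, a convertase, with medians of -0.00955 in low, -0.00195 in middle and 0.00225 in high mice. Pcsk2, which encodes PC2 itself, was not analysed here. Of 20 measured neuropeptide precursors, limma called 0 and 1 had an unadjusted p under 0.05, with a median difference of 0.000182. The smallest p was that of Pdyn, the dynorphin precursor, which also lies on chromosome 2, with a difference of 0.0126 ± 0.00457 (limma adjusted p = 0.31). Of 16 genes of dense-core vesicle release, limma called 0 and 0 had an unadjusted p under 0.05, and Cadps, a priming factor of such vesicles, had the smallest p, with medians of 0.0011, 0.0228 and 0.0237. By limma 0 of 7 neuronal, 0 of 8 oligodendrocyte and 0 of 5 endothelial markers were called, with 1 of each at an unadjusted p under 0.05. Also 0 of 7 astrocyte, 5 choroid plexus, 5 anterior pituitary, 4 red cell and 2 Y-linked markers, 9 immediate early genes and 6 glucocorticoid responsive genes were called, with 0 at an unadjusted p under 0.05. The mean of the 2 Y-linked markers had medians of 0.0546 in low, -0.0109 in middle and -0.5 in high mice, with a wide range in each group. Sex was not in the model, and an even share of males and females between the groups is not shown.

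Of 8 measured partners of Aqr in the spliceosome, 1 was called, Ctnnbl1, which is itself on chromosome 2 and was 1.08-fold lower in low mice (difference -0.0335 ± 0.00804, limma adjusted p = 0.0036). It was called in neither block of mice alone. Of 4 measured group IV phospholipases A2, 2 were called, Pla2g4e and its neighbour Pla2g4b, which was 1.07-fold lower in low mice (-0.0293 ± 0.00454, limma adjusted p = 6.61e-08). Both lie on chromosome 2 within 150 places after Scg5, where 37% of genes were called. Beside the counts of these lists stand 1.58% called over all named genes and 12.1% over those of chromosome 2.

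Away from chromosome 2, part of the microglial markers were higher in low mice. Of 7 measured markers of microglia, the brain's resident macrophages, 4 were called and all 4 were higher in low mice, beside 0.701% of all named genes called higher. The median difference of the list was 0.0262 beside -0.000397 over all named genes, and all 7 differences were above 0. A shared sign was not particular to this list. All 9 immediate early genes, of which limma called 0, also had differences above 0. Ctss, a lysosomal cysteine protease, ran from -0.124 to 0.184 with a median of 0.0529 in low mice, had a median of 0.0239 in middle mice, and ran from -0.157 to 0.092 with a median of -0.0155 in high mice, a difference of 1.17-fold (0.0699 ± 0.00974, limma adjusted p = 9.79e-10). Trem2, a lipid-sensing receptor, was 1.18-fold higher in low mice (limma adjusted p = 5.01e-07), with medians of -0.0128, -0.0556 and -0.0784. C1qa, a chain of complement C1q, was 1.16-fold higher (0.000506) and Csf1r, the receptor on which microglia depend, 1.06-fold higher (0.0318). Low and high mice overlapped broadly for all 4. Cx3cr1, the fractalkine receptor, Tmem119 and C1qb were not called, at 1.0045-fold, 1.06-fold and 1.06-fold.

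The mean over the 7 markers ran from -0.069 to 0.0754 with a median of 0.00599 in low mice, had a median of -0.025 in middle mice, and ran from -0.12 to 0.0463 with a median of -0.0401 in high mice. The 4 called markers did not move as a block inside a level, with pairwise r from -0.258 to 0.501 (median 0.0862) over the 66 low mice and from -0.365 to 0.565 (median 0.102) over the 62 high mice. Within mice up to 212, Ctss, Trem2 and Csf1r were called and C1qa was not (limma adjusted p = 0.0825). Within mice from 213, Ctss was called and Trem2 (0.185), C1qa (0.121) and Csf1r were not. In whole brain RNA, fewer cells of a type and less RNA in each cell cannot be told apart.

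**Figure D5:**
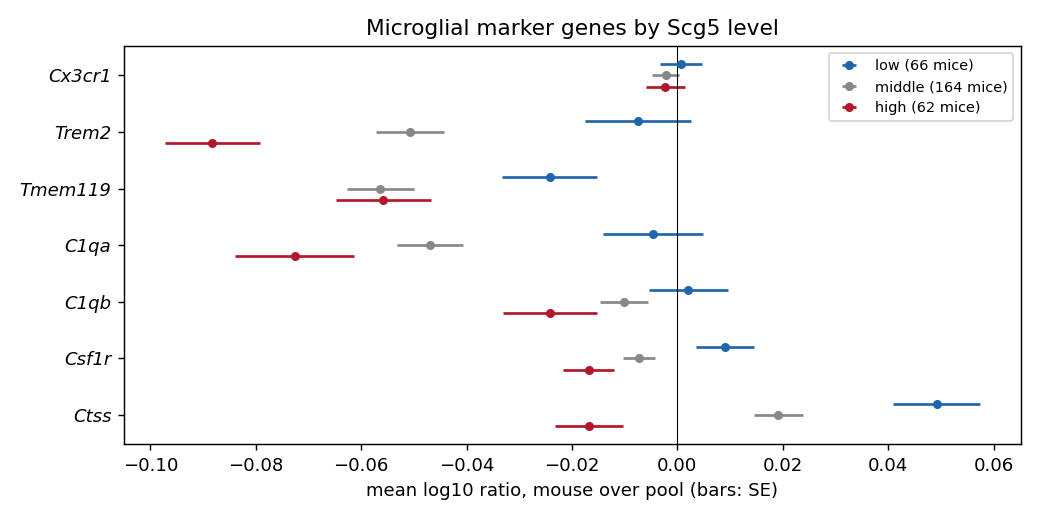
Mean log10 ratio over the pool with its SE for the 7 measured microglial markers in low, middle and high mice. Ctss, Trem2, C1qa and Csf1r, and also C1qb, which was not called, are highest in low mice and lowest in high mice. Tmem119 is highest in low mice, and Cx3cr1 stays near 0 in all 3 groups.

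Among the 12 genes of largest difference elsewhere, Acot2 had the lowest share of mice on the other side of the midpoint. Acot2, a mitochondrial acyl-CoA thioesterase on chromosome 12, was 1.38-fold higher in low mice (0.141 ± 0.00851, limma adjusted p = 5.13e-41). It ran from -0.0644 to 0.259 with a median of 0.0618 in low mice and from -0.207 to 0.0252 with a median of -0.0679 in high mice, with a median of 0.00798 in middle mice, and that share was 6.25%. Hand1, a basic helix-loop-helix transcription factor on chromosome 11, was 1.48-fold lower in low mice (-0.169 ± 0.0137, limma adjusted p = 8.63e-26), with medians of -0.131, -0.00817 and 0.0657. Rlbp1, a retinaldehyde-binding protein, was 1.24-fold lower, and Cenpl, of the centromere, 1.22-fold higher. The share on the other side was 16.4% for Rlbp1, 19.5% for Hand1 and 21.9% for Cenpl. All 4 were called in both blocks of mice. The chromosome of a gene here is that of the gene its probe is annotated to, and whether the probes match elsewhere was not tested.

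The other 8 of the 12 largest differences elsewhere were lower in low mice and had a wide spread within each level. Casq1, the calcium-binding calsequestrin of muscle, was 1.86-fold lower, and ran from -0.802 to 0.363 in low mice (median -0.232) and from -0.797 to 0.468 in high mice (median 0.0306), so that 32% of mice lay on the other side of the midpoint. Ypel1 was 1.5-fold lower, Ptgfrn, a membrane regulator of the prostaglandin F receptor, 1.47-fold, Fam205c 1.42-fold, Cdv3 1.39-fold, Dmpk, the myotonic dystrophy kinase, 1.37-fold, Ppt2, a thioesterase, 1.32-fold, and H2-M10.4, a class I gene, 1.25-fold. For Fam205c 1 low mouse stood at the limit of -2, and the difference was -0.123 without values at the limits. Of these, 6 genes, Casq1, Ypel1, Cdv3, Dmpk, Ppt2 and H2-M10.4, had an r with Ptgfrn between 0.852 and 0.988 inside the low, the middle and the high mice. Over all probes, 10 had an r above 0.8 with Ptgfrn in each of the 3 levels. All 10 were called and lower in low mice, beside 0.713% of all probes. Ptgfrn was itself picked as called and lower in low mice, and the 10 were picked in the same mice for following it. Their shared direction was therefore likely from the start, and they do not count as separate results. The 10 include Insr, the insulin receptor, and Ctla4, and these correlations share the arrays of the mice. Within mice from 213, Casq1 and Ptgfrn were called, whereas Ypel1 (limma adjusted p = 0.0767), Cdv3 (0.256), Dmpk (0.459), Ppt2 (0.241), Fam205c (0.249) and H2-M10.4 were not.

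The size of the difference itself was compared between the blocks of mouse numbers. It differed at 18 of 23548 probes (0.0764% called), of which 17 were among the 333 called probes (5.11%). Aqr differed by 0.584 in mice up to 212 and by 0.75 in those from 213, and Slc24a5 by 0.553 and 0.782. Both kept their direction in both blocks. Mga, a transcription factor of the MAX network, differed by 0.0641 and 0.194, and Slc27a2, a fatty acid transport protein, by -0.0483 and -0.107. Ccndbp1 was lower in low mice only up to 212, at -0.0844, and stood at 0.00189 from 213 (limma adjusted p of the difference 0.000188).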

How the data were processed

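Whole-brain RNA of 292 mice was measured on 2-colour arrays, with no dyes swapped, per the labels. The table deposited by the authors holds 1 value per probe and array, taken here as a log10 ratio. Its base, direction, background correction and normalization are unstated in the sources used here. No signal intensities were used, so signal over background is unknown. The precision rests on the number of arrays and the spread of each probe. Of 23574 probes, 25 missing on over 5% of arrays were left out, and 252 values were filled with the probe mean. Annotation gave 12662 probes a gene of the table of assembly GRCm38.p6, which served for names and gene order, and the probe of largest SD stood for a gene. Levels low, middle and high were fitted together with limma 3.58.1 (R 4.3.3) with mouse-number block as covariate, tested on simulated data with known changes. Named were the given genes, the 15 largest called differences on chromosome 2 and 12 elsewhere, 5 measured neighbours on each side, up to 4 members of each list, and up to 5 genes called between blocks. Members and lists were chosen with earlier results of these data known.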

Additional observations from a re-analysis of the deposited data

Results flagged for a closer look

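The low minus high difference of 6 named genes differed between mice up to 212 and mice from 213 by a limma test of the difference itself, with Benjamini-Hochberg adjustment over all probes. The difference up to 212 minus that from 213 was -0.166 for Aqr (adjusted p = 1.12e-05), -0.0863 for Ccndbp1 (0.000188), -0.228 for Slc24a5 (0.00406), 0.0586 for Slc27a2 (0.00869), -0.13 for Mga (0.0304) and -0.0826 for Ankrd1 (0.041). Ankrd1, a cardiac ankyrin repeat protein gene on chromosome 19, was -0.106 up to 212 and -0.0237 from 213. Between the 2 label spellings among mice up to 212, limma called no such probe, and 356 had an unadjusted p under 0.05.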

How the results depend on the processing

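Of 42 called named genes, 18 kept their direction and call in all 19 other settings, among them Aqr, Pla2g4e and Slc24a5, and Fmn1 did so in the 18 settings that gave it a value. The counts of 333 probes, 107 chromosome 2 genes and 64 genes elsewhere moved by over 1.5 times in these settings. With 10 principal components they were 580 probes and 150 genes elsewhere, and with array weights 98 genes elsewhere. In mice from 213 alone they were 212 probes, 69 chromosome 2 genes and 27 elsewhere, and in mice up to 212 alone 42 elsewhere, with fewer mice in each. A 1.2-fold minimum left 116 probes, 40 chromosome 2 genes and 13 elsewhere. Of 38 named genes called by rule, 22 and 24 were called in the label sets up to 212 alone. The difference between label spellings was called at 0 probes, and departures from the midpoint on linear ratios at 0. Label sets, linear ratios, leaving out values at the limits, and leaving out arrays of large SD were chosen after seeing the data. Signs turned as follows, all without a call there, and all but Ccndbp1 for genes with no call to begin with; the cause was not tested. In the second label set up to 212 the difference was 0.00583 for Grem1, 0.0113 for Olfr1302, 0.0272 for Arhgap11a and -0.068 for Kdm5d. In mice from 213 alone the difference was 0.012 for Chrm5, -0.00391 for Nutm1, 0.000775 for Gjd2, 0.0018 for BC052040, -0.0149 for Tshb, -0.000627 for Slc4a1, -0.132 for Kdm5d and 0.00189 for Ccndbp1. In the first label set up to 212 the difference was -0.00736 for Nutm1, 0.0174 for Olfr1302, 0.00265 for Gjd2, 0.00485 for Mag, -0.0236 for Folr1, -0.00394 for Tshb and -0.0162 for Dusp1. With array weights the difference was 0.00802 for Olfr1302. With arrays scaled to equal SD the difference was 0.00758 for Olfr1302. With the lowest and highest 15% of mice the difference was 0.000862 for Olfr1302, -0.00701 for Folr1 and -0.152 for Kdm5d. In mice up to 212 alone the difference was 0.0201 for Olfr1302. In a linear regression on Scg5 the difference was -0.0107 for Tshb. With 10 principal components the difference was -0.0247 for Kdm5d. With the 3 label sets as covariate the difference was -0.0774 for Kdm5d. Across settings, 43.3% to 52.9% of called probes were lower in low mice, beside 50.5%. No paired analysis was possible because each mouse number occurs once. Signal over background is unknown, which limits what a small ratio can show.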

Other observations

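Some genes were picked out after their values were seen. On chromosome 2, Bdnf, a neurotrophin, was higher in low mice by 0.0473 (limma adjusted p = 0.00256), B2m, the light chain of class I molecules, lower by a difference of -0.0831 (2.37e-08), Hdc, which makes histamine, higher by 0.0896 (2.87e-28), and Srp14, of the signal recognition particle, lower, at -0.143 (7.08e-78). Elsewhere, Slc6a12, a transporter of betaine and GABA, was lower in low mice at -0.0732 (3.86e-36), and Alox12e, an epidermal lipoxygenase, higher at 0.0437 (1.93e-17).

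Of genes of leukocytes and macrophages, 4 picked the same way were higher in low mice, whereas B2m was lower; this is no test of immune genes as a group. Cd53, a tetraspanin of leukocytes, and Adgre1, a macrophage surface receptor, were each 1.11-fold higher (limma adjusted p = 0.000116 and 0.0015), and Fcgr3, an Fc receptor, and Ly86 1.07-fold (0.0109 and 0.0036). For Fcgr3 the middle mean, at 0.0292, did not lie between the low mean of 0.0288 and the high mean of 0.00324. Ly86 was called in neither block alone. Cd53 and Adgre1 were called only up to 212 and Fcgr3 only from 213, and limma called none of these 4 for a difference between the blocks.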
